A study of Mus musculus with 4 samples.

Results

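The genes Atp1b1, Atp1b2 and Atp1b3, which encode the beta subunits of the sodium-potassium ATPase, were followed in sorted excitatory and inhibitory neuron nuclei. They were chosen by symbol, and all 3 stood once each among the 55487 genes of the expression table. RNA was measured in 2 libraries of excitatory nuclei and 2 libraries of inhibitory nuclei, isolated by fluorescence-activated sorting from wild-type (WT) adult mouse brain with the olfactory bulb removed. All 4 libraries carried the same batch label, and the labels name no sort marker, no number of animals and no pooling. Whether replicates of a group are separate animals is likewise unstated, and p-values thus reflect the spread between these libraries alone, which may be technical. Values are TPM, transcript abundances that the authors divided by transcript length and scaled to the same total in each library, so that levels of different genes can be set side by side. TPM keeps no sequencing depth, and the depth of each library is therefore unknown.

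The sodium-potassium ATPase, or sodium pump, uses ATP to carry sodium ions out of the cell and potassium ions in, and so maintains the gradients on which the resting potential, action potentials and transmitter uptake of neurons depend. Each pump joins a catalytic alpha subunit, which binds ATP and the ions, to a glycosylated beta subunit with a single membrane span, which the alpha subunit needs to fold and to reach the plasma membrane. Small FXYD proteins bind many pumps and tune their ion affinities. Among beta subunits, beta1 (Atp1b1) is the main neuronal form, beta2 (Atp1b2) is also known as the adhesion molecule on glia, and beta3 (Atp1b3) is widely expressed.

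The 3 genes lie on different chromosomes (GENCODE M21 annotation, mm10), all on the minus strand. Atp1b1 (ENSMUSG00000026576) spans chromosome 1 from 164437109 to 164458355, Atp1b2 (ENSMUSG00000041329) chromosome 11 from 69599736 to 69605942, and Atp1b3 (ENSMUSG00000032412) chromosome 9 from 96332655 to 96364442. Their coding sequences hold 915, 873 and 837 bases. The longest stretch that any pair of them shares exactly is shown here because it bears on whether reads of one gene can be counted for another. It lies at base 645 of the Atp1b1 and base 603 of the Atp1b2 coding sequence, counted from the start codon, and has 19 bases.
Atp1b1 and Atp1b2: tggcaagagagatgaagat
No window of 75 bases in the main coding transcript of one member occurred in a transcript of another. Atp1b3 shared 6.20% of such windows with Gm1848, which was listed at 0 in every library. For Atp1b1, 17.1% of the windows occurred on the opposite strand of Nme7 transcripts. The ends of these genes overlap over 617 bases (chr1:164437109-164437725). The library kit was directional, but no source used here says whether the authors counted by strand. Whether the deposited values keep reads of the shared end apart is thus unknown.

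RefSeq start-site windows (GRCm38.p6, 250 bases before to 50 bases after the start) were at hand for 2 of the 3 members, 1 for Atp1b1 and 2 for Atp1b3. The window of Atp1b1 and the window at the outer start of Atp1b3, both on the minus strand, are printed to show how the starts of the most abundant and the second most abundant member differ. Capitals mark the motifs found on either strand among 5 searched, which were GGGCGG for Sp factors, CCAAT for the CCAAT box, TATANA for the TATA box, GCGNGGGCG for EGR factors and TGACGTCA for the cyclic AMP response element. TATANA can overlap its own reverse complement.
Atp1b1 chr1:164458306-164458605: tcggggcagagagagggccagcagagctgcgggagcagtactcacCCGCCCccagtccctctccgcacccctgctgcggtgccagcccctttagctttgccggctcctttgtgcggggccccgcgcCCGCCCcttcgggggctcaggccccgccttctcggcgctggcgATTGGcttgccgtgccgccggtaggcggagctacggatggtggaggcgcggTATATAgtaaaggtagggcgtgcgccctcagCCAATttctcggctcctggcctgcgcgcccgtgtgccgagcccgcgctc
Atp1b3 chr9:96364382-96364681: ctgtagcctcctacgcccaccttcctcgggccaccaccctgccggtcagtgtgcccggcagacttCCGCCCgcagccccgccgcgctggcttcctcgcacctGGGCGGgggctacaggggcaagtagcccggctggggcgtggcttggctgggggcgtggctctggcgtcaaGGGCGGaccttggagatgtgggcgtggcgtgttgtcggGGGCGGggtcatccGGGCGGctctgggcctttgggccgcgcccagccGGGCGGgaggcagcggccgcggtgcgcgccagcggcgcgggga
The Atp1b1 window had a GC content of 71% and held GGGCGG 2 times, CCAAT 2 times and TATANA 1 time, the last as TATATA beginning 30 bases before the start. The printed Atp1b3 window had a GC content of 76% and held GGGCGG 6 times and none of the other motifs. The inner Atp1b3 window, chr9:96363666-96363965, had a GC content of 74.7% and none of the 5 motifs. Over all 32851 windows, whose median GC content was 52.7%, 35.7% held GGGCGG, 37.4% CCAAT, 24.7% TATANA, 5.55% GCGNGGGCG and 1.79% TGACGTCA. The study concerns EGR1, a transcription factor induced by neuronal activity, and its motif was in none of the 3 member windows. A match is a run of letters and not a measured binding site, and the lack of a match says only that these letters are not in the window.

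The sorted populations carried the markers of their labels. Of 9 excitatory neuron markers, 8 were higher in excitatory nuclei, and of 9 inhibitory neuron markers tested, all 9 were higher in inhibitory nuclei (limma, adjusted p under 0.05). The exception was Slc17a6, the glutamate transporter typical of thalamus and brainstem, which was higher in inhibitory nuclei (21.3 ± 1.50 against 83.2 ± 6.74 TPM, SD, n = 2 each). Markers of striatal projection neurons (7 of 7) and Purkinje cells (4 of 5) were also higher in inhibitory nuclei. Across the 26055 genes tested, which are not independent replicates, Pearson's r between the replicates was 0.967 for excitatory and 0.968 for inhibitory nuclei.

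Atp1b1 transcripts were abundant in both populations, and none of the 3 beta subunit genes differed between excitatory and inhibitory nuclei past the threshold. The inhibitory means were 1.22-fold (Atp1b1), 1.30-fold (Atp1b2) and 1.29-fold (Atp1b3) the excitatory means, and for each gene both inhibitory libraries stood above both excitatory ones. Such a separation was common, since it held in the same direction for 33.3% of the 26055 genes tested and in either direction for 56.2%. At an adjusted p under 0.05, 5.43% of the tested genes were called higher in excitatory nuclei and 6.62% higher in inhibitory nuclei, 12.0% in all, against 0 of the 3 members (2 of 3 at an unadjusted p under 0.05, which 27.8% of all tested genes reached). In these bulk libraries, fewer cells of a type and less RNA per cell cannot be told apart.

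Atp1b1, the main neuronal beta subunit, stood at 556 and 479.5 TPM in the excitatory libraries, against 685 and 577 TPM in the inhibitory libraries. The higher excitatory library lay close under the lower inhibitory one. Replicates of 1 group differed by 1.16-fold (excitatory) and 1.19-fold (inhibitory), nearly as much as the group means, 518 ± 54.2 and 631 ± 76.1 TPM (SD, n = 2 each). The log2 fold change of TPM + 1, with excitatory nuclei over inhibitory ones, was -0.28 ± 0.14 (SE), with a 95% confidence interval of -0.61 to 0.05 and a limma adjusted p = 0.242. As a linear fold this interval runs from 0.967 to 1.53, inhibitory over excitatory. Atp1b1 ranked 53 and 71 in the excitatory libraries, and 31 and 40 in the inhibitory libraries, among the 26055 tested genes ordered from the highest TPM. The fold change was -0.18 without excitatory replicate 2, -0.16 without inhibitory replicate 1 and -0.49 under quantile normalization, with no call in any of these fits.

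Atp1b3, which pairs with alpha subunits in many tissues, was listed at 101 and 99.7 TPM in the excitatory libraries, against 115 and 144 TPM in the inhibitory libraries. The excitatory replicates were nearly equal, and the gap between the groups was smaller than the gap between the inhibitory replicates. Means were 100.5 ± 1.13 TPM in excitatory and 129 ± 20.6 TPM in inhibitory nuclei (SD, n = 2 each). The log2 fold change was -0.35 ± 0.13 with an interval of -0.67 to -0.03 (limma adjusted p = 0.148), and -0.19 without inhibitory replicate 2. Its rank was 1426 and 1666 in the excitatory libraries, and 1205 and 811 in the inhibitory libraries.

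Atp1b2, the beta subunit that also acts in cell adhesion, had 54.2 and 46.0 TPM in the excitatory libraries, against 70.3 and 60.0 TPM in the inhibitory libraries. Each inhibitory library exceeded each excitatory one, and replicates differed by 1.18-fold in excitatory and 1.17-fold in inhibitory nuclei. Means were 50.1 ± 5.80 TPM in excitatory and 65.1 ± 7.25 TPM in inhibitory nuclei (SD, n = 2 each). The log2 fold change was -0.37 ± 0.14 with an interval of -0.71 to -0.03 (limma adjusted p = 0.147). Because Atp1b2 is also expressed by astrocytes, the astrocyte markers are given beside it. Of 12, Slc1a2 was higher in excitatory nuclei and Slc4a4 in inhibitory nuclei, none was at 0 in all libraries, and their summed level was 625 to 650 TPM (649.7 in the higher library) in excitatory and 368 to 438 TPM in inhibitory libraries. Most of the excitatory sum was Slc1a2, a glial glutamate transporter also known in some neurons (359 and 429.8 TPM in excitatory libraries, 85.1 and 88.8 TPM in inhibitory libraries). Without it the sums were 219.9 to 266 TPM in excitatory and 279 to 353 TPM in inhibitory libraries. By their means 10 of the 12 markers were higher in excitatory nuclei, and only Slc4a4 and Aldoc were higher in inhibitory nuclei. The 9 left without these and Slc1a2 summed to 92.9 and 81.4 TPM in excitatory libraries, against 73.1 and 56.7 TPM in inhibitory libraries. This split was made after the values were seen and by their direction. The higher excitatory mean of these sums was thus fixed by the choice. The part of astrocyte RNA in the Atp1b2 values was not tested. The astrocyte water channel gene Aqp4 stood at 7.41 and 5.19 TPM in excitatory libraries, against 5.31 and 4.17 TPM in inhibitory libraries. Its groups overlapped and it was not called.

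**Figure D1:**
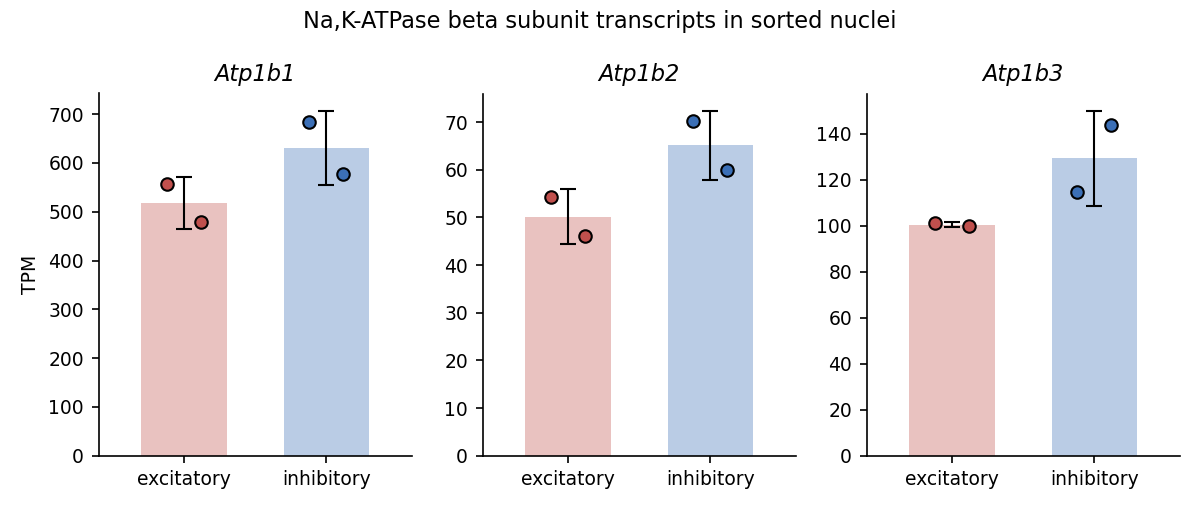
TPM of Atp1b1, Atp1b2 and Atp1b3 in excitatory (left, red) and inhibitory (right, blue) nuclei, with 1 point per library, bars at the mean and error bars of 1 SD (n = 2). In each panel both inhibitory libraries lie above both excitatory ones by a gap smaller than the difference between the inhibitory replicates, and the vertical scales differ between genes.

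The sizes of these differences can be read against genes of like abundance. Among tested genes whose mean TPM was within a factor of 2 of the member's, 22.5% of 173 genes around Atp1b1, 15.0% of 6250 around Atp1b2 and 16.8% of 3288 around Atp1b3 were called in either direction. The smallest absolute log2 fold change called was 0.41 at the level of Atp1b1, 0.40 at that of Atp1b2 and 0.39 at that of Atp1b3. All 3 members fell short of these sizes. A call depends on spread as well as on size, so these values do not show that the members' differences are small. Over all tested genes the median log2 fold change was -0.07, and 30.3%, 24.3% and 25.6% of them had a lower one than Atp1b1, Atp1b2 and Atp1b3, in that order.

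The order of the members was the same in all 4 libraries, with Atp1b1 highest, Atp1b3 next and Atp1b2 lowest. The ranges of the 3 genes did not meet: Atp1b1 spanned 479.5 to 685 TPM, Atp1b3 99.7 to 144 TPM and Atp1b2 46.0 to 70.3 TPM. Atp1b1 made up 78.2% and 76.7% of the summed beta TPM in excitatory libraries, against 78.7% and 73.9% in inhibitory libraries. The share of Atp1b3 was 14.2% and 15.9% in excitatory libraries, against 13.2% and 18.4% in inhibitory libraries. For both genes the groups overlapped (exact two-sided permutation p = 1). Atp1b2 held 7.62% and 7.36% in excitatory libraries, against 8.08% and 7.69% in inhibitory libraries. These do not overlap, but the exact permutation p = 0.333 is the smallest that 2 against 2 libraries can give.

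Summed over the 3 members, beta transcripts came to 712 and 625 TPM in excitatory libraries, against 869.6 and 781 TPM in inhibitory libraries. Both inhibitory sums lay above both excitatory sums, and the means were 668 ± 61.1 TPM in excitatory and 825 ± 62.7 TPM in inhibitory nuclei (SD, n = 2 each, exact two-sided permutation p = 0.333, the smallest possible). The sum was chosen after the values were seen. For each member both inhibitory libraries already stood above both excitatory ones. The separation of the sums and their permutation p were thus fixed and add no further result.

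**Figure D2:**
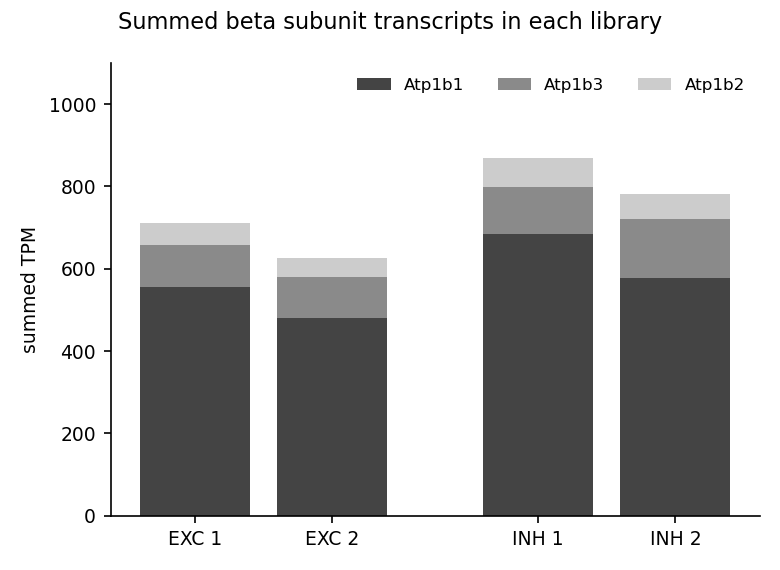
Stacked TPM of Atp1b1, Atp1b3 and Atp1b2 in excitatory (EXC) and inhibitory (INH) replicates 1 and 2. Atp1b1 makes up 73.9% to 78.7% of the sum in every library, and the sums reach 712 and 625 TPM in excitatory libraries against 869.6 and 781 TPM in inhibitory libraries.

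A ratio within a library does not move when a single factor scales the whole library. Atp1b1 over Atp1b2 was 10.3 and 10.4 in excitatory libraries, against 9.74 and 9.61 in inhibitory libraries, so the ratio was close between replicates while each gene alone differed by 1.16-fold to 1.19-fold. On the log2 scale the ratio averaged 3.37 in excitatory and 3.27 in inhibitory nuclei, a difference of 0.10 with no overlap. Under quantile normalization, an alternative chosen after the data were seen that is not a single factor, the difference was -0.14, the opposite sign. Atp1b1 over Atp1b3 was 5.49 and 4.81 in excitatory libraries, against 5.97 and 4.01 in inhibitory libraries. Atp1b2 over Atp1b3 was 0.535 and 0.462 in excitatory libraries, against 0.613 and 0.417 in inhibitory libraries. Both ratios to Atp1b3 spread more between the inhibitory replicates than between the group means. Of the 3 ratios, none differed between the groups by the exact two-sided permutation test (p = 0.333, 1 and 1, each 1 after Benjamini-Hochberg adjustment over the 3 pairs), a design that cannot reach 0.05.

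**Figure D3:**
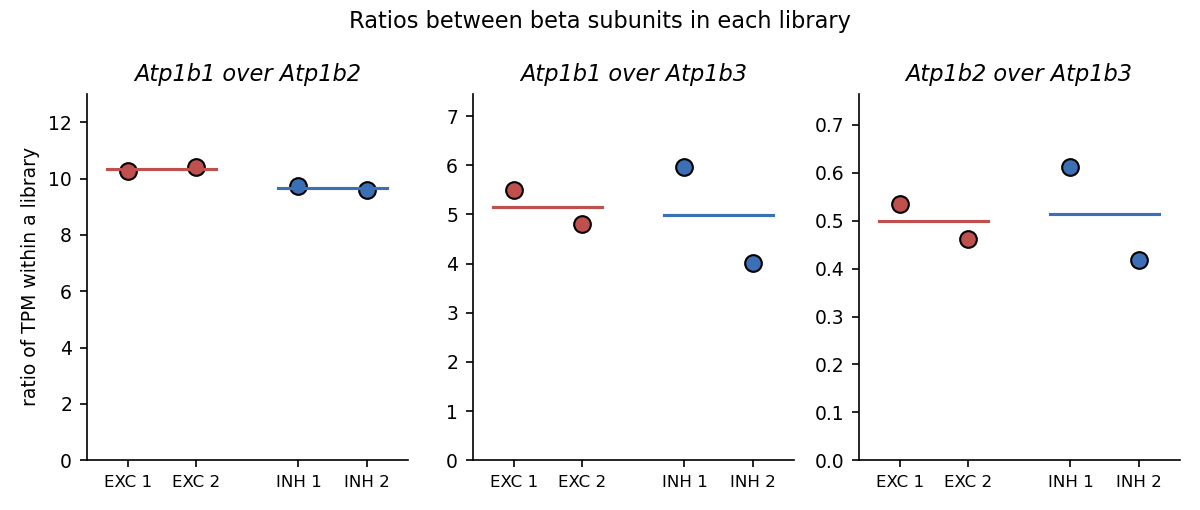
Ratio of the TPM of each pair of beta subunit genes within each library, for excitatory (EXC, red) and inhibitory (INH, blue) replicates 1 and 2, with lines at the group means and axes that start at 0. Atp1b1 over Atp1b2 stays between 9.61 and 10.4 in the 4 libraries, while both ratios to Atp1b3 are widest apart between the inhibitory replicates.

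The genes closest to each member in pattern were found by the root mean square (RMS) difference between log2(TPM + 1) profiles over the 4 libraries, each centred on its own mean, among named genes within a factor of 2 in mean TPM. For Atp1b1 (154 genes compared) they were the mitochondrial ATP synthase gene Atp5b (RMS 0.043), the translation elongation factor gene Eef1a1 (0.077), the brain creatine kinase gene Ckb (0.082), the endoplasmic reticulum calcium pump gene Atp2a2 (0.085) and the nuclear matrix protein gene Matr3 (0.086). For Atp1b2 (5175 genes compared) they were Chpf, an enzyme gene of chondroitin chain synthesis (0.0105), the neurofilament gene Nefm (0.028), Ghitm (0.028), the lysosomal protease gene Ctsb (0.029) and the synaptic vesicle gene Synpr (0.033). For Atp1b3 (2879 genes compared) they were the RNA-binding protein gene Hnrnpa3 (0.038), the interferon pathway factor gene Irf3 (0.043), the small nucleolar RNA gene Snord116l17 (0.044), Dus3l (0.049) and Dip2a (0.051). With 4 libraries in 2 groups, many genes share such a profile by their group difference and by what sets replicates apart.

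The neighbours of the members on the chromosome had levels of their own. Nme7, which overlaps the end of Atp1b1 on the other strand, stood at 40.3 and 46.2 TPM in excitatory libraries, against 33.9 and 34.7 TPM in inhibitory libraries, the opposite order of Atp1b1 (log2 fold change 0.32 ± 0.13, limma adjusted p = 0.169). Tfdp2, a cell cycle transcription factor gene 9009 bases from Atp1b3, stood at 47.0 and 57.5 TPM in excitatory libraries, against 68.0 and 63.9 TPM in inhibitory libraries, and was not called either (limma adjusted p = 0.169). Trp53, the p53 tumour suppressor gene 7863 bases from Atp1b2, stood at 9.75 and 11.8 TPM in excitatory libraries, against 9.70 and 14.5 TPM in inhibitory libraries, while Shbg on the other side was listed at 0 in all 4. The predicted genes Gm37411 and Gm32391 beside Atp1b1 were not called (limma adjusted p = 0.178 and 0.552), and BC043934 beside Atp1b3 was too low to test.

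Some partners of the beta subunits differed between the populations. Of 15 listed genes for regulators and relatives of the pump, 11 were tested, with 3 called higher in excitatory nuclei, 1 in inhibitory nuclei and 7 in neither direction (limma, against 5.43% and 6.62% of all tested genes). Their median log2 fold change was 0.22, and 0.08 over the 10 without Fxyd3, which passed the filter on low values only through its excitatory libraries, beside -0.07 over all genes and -0.35 over the 3 members. Without the filter on low values 2 and 0 of them were called, and with no trend in the variance prior 2 and 1. The 3 called higher in excitatory nuclei are neighbours on 1 chromosome and may not count as separate results.

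Of the 7 FXYD regulators, 3 were higher in excitatory nuclei and 4 were not called. The 3, Fxyd5, Fxyd7 and Fxyd1, lie next to each other on the minus strand of chromosome 7. They span 31032722 to 31042481, 31042513 to 31051467 and 31051678 to 31057199, in that order. How the authors' counting assigned reads near their ends is unstated, so the 3 calls may not be separate results. Fxyd5 (dysadherin) stood at 36.6 and 58.1 TPM in excitatory libraries, against 12.3 and 9.56 TPM in inhibitory libraries (log2 fold change 1.99 ± 0.25, limma adjusted p = 0.00733). Fxyd1 (phospholemman), a regulator known from heart and muscle, stood at 19.1 and 14.5 TPM in excitatory libraries, against 4.45 and 4.23 TPM in inhibitory libraries (1.73 ± 0.23, limma adjusted p = 0.00878). Fxyd7, a brain-enriched regulator, stood at 38.1 and 50.1 TPM in excitatory libraries, against 22.4 and 22.9 TPM in inhibitory libraries (0.92 ± 0.16, limma adjusted p = 0.0215). The Fxyd1 and Fxyd5 calls held under every alternative run, while that of Fxyd7 was lost without the filter, without the variance trend and without excitatory replicate 2. Fxyd6 averaged 36.7 ± 7.25 TPM in excitatory and 38.5 ± 3.94 TPM in inhibitory nuclei, and Fxyd4 18.4 ± 0.907 against 29.1 ± 13.6 TPM (SD, n = 2 each). Fxyd4 was called only without inhibitory replicate 2 (log2 fold change -1.04, limma adjusted p = 0.0225). Fxyd2, the gamma subunit known from kidney, and Fxyd3 stood at or under 3.61 TPM in every library, and Fxyd3 reached 1 TPM only in its excitatory libraries (2.75 and 1.34 TPM).

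Of the 4 NKAIN genes, whose proteins are named for their interaction with the sodium pump, Nkain3 was the 1 called, higher in inhibitory nuclei. Nkain3 stood at 10.3 and 11.4 TPM in excitatory libraries, against 20.4 and 20.1 TPM in inhibitory libraries (log2 fold change -0.85 ± 0.17, limma adjusted p = 0.0290), a call lost with any 1 library left out and without the filter. Its span also holds, on the other strand, Gm11872 (3.28 and 4.48 TPM in excitatory libraries, 6.13 and 9.08 TPM in inhibitory libraries) and the pseudogene Gm11873 (5.05 and 4.57 TPM in excitatory libraries, 7.60 and 11.4 TPM in inhibitory libraries). Nkain2 averaged 81.7 ± 7.50 TPM in excitatory and 67.1 ± 0.108 TPM in inhibitory nuclei (SD, n = 2 each, limma adjusted p = 0.174). The span of Nkain2 holds several annotated genes, most on its own strand, with Gm47702 at 80.6 and 63.3 TPM in excitatory libraries, against 63.0 and 62.2 TPM in inhibitory libraries. How the authors' counting split reads between such overlapping genes is unstated, so the Nkain2 and Nkain3 levels are uncertain. Nkain1 and Nkain4 stood between 9.79 and 20.5 TPM in the 4 libraries, with overlapping groups. The remaining genes of the pump family were near 0, with the muscle beta-like gene Atp1b4 listed at 0 in 3 of the 4 libraries, the gastric proton pump beta gene Atp4b listed at 0 in all 4, and the proton pump alpha genes Atp4a and Atp12a at or under 1.20 TPM.

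**Figure D4:**
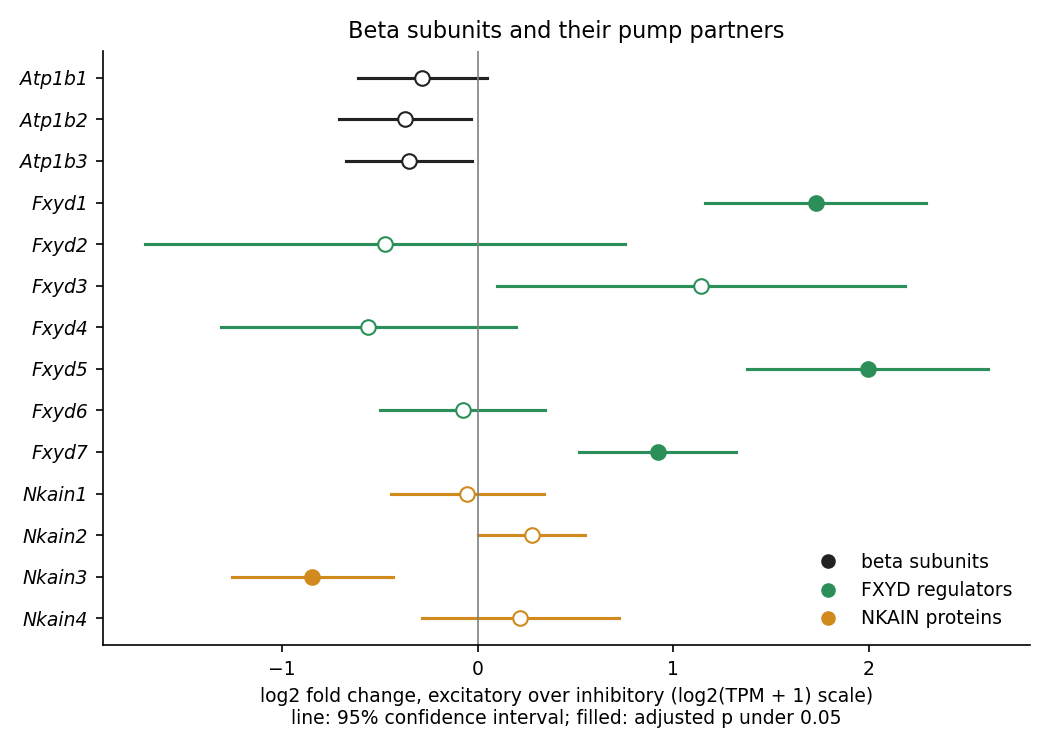
Log2 fold change of TPM + 1, with excitatory nuclei over inhibitory ones, for the 3 beta subunit genes and the 11 tested partners, with 95% confidence intervals from limma and filled points for an adjusted p under 0.05. The 3 beta subunits lie between -0.37 and -0.28 and are open points, with Fxyd1, Fxyd5 and Fxyd7 called to the right of 0 and Nkain3 called to the left.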

How the data were processed

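RNA was measured in 4 libraries of sorted mouse neuron nuclei, 2 excitatory and 2 inhibitory, grouped by the sample titles. Per the labels' protocols, ribosomal RNA was removed and a directional kit was used. The authors deposited 1 table of TPM values with a column per library, and 0 columns had no sample. The submitters' processing notes name StringTie 2.2.1, HISAT2 2.2.1, Bowtie2 2.3.5, fastp 0.23.4 and the build mm10. What each tool did, which annotation was used and whether strand was counted were not given in the sources used here. TPM keeps no depth, so no counting interval or detection limit was computed.

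Genes that reached 1 TPM in 2 or more libraries (26055 of 55487) were compared as log2(TPM + 1), a pseudocount of 1 that understates changes of low genes, with limma 3.58.1 in R 4.3.3 (variance trend, 2 residual and 4.04 prior degrees of freedom, two-sided, Benjamini-Hochberg over all tested genes). The fit was tested on simulated data with planted log2 changes of 2. These were larger than the differences of the members, and changes of the members' size were not simulated. Shares and ratios used exact permutation tests (scipy 1.17.1), and figures matplotlib 3.10.9. Positions came from GENCODE M21, whose identifiers matched 55141 of those listed, and start-site windows from RefSeq. The 13 alternatives changed the pseudocount, filter, scaling, variance prior or replicate block, or left out a library, with the filter applied again. The genes named were the 3 members, the pump partners, the 5 genes most alike in pattern to each member and their chromosomal neighbours, with cell type markers beside them. Some genes of the pump are not reported here. The members and lists were chosen with earlier results of these data known.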

Additional observations from a re-analysis of the deposited data

How the results depend on the processing

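The 3 beta subunits kept their sign, below 0, in all 13 alternatives, from -0.49 to -0.16 for Atp1b1, -0.49 to -0.26 for Atp1b2 and -0.51 to -0.19 for Atp1b3. With any 1 library left out the ranges were -0.41 to -0.16, -0.49 to -0.26 and -0.51 to -0.19. None was called except under the replicate block, where Atp1b1 (-0.28, adjusted p = 0.0277) and Atp1b2 (-0.37, adjusted p = 0.0449) passed and Atp1b3 did not (adjusted p = 0.0738); over the other alternatives the smallest adjusted p was 0.0622, 0.131 and 0.0999. The block fit has 1 residual degree of freedom. Replicate numbers come from titles and are not said to mark a shared animal or day, and the replicate 1 minus 2 differences of the groups correlated at 0.096 over genes, so the numbers were not taken as pairs. The block raised calls over all genes to 1946 (excitatory) and 2382 (inhibitory), against 1414 and 1725 without it.

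Calls over all genes fell to 666 and 740 without the filter. With 1 library left out they fell to 604 to 1039 and 800 to 1085. Without the filter 37740 genes were tested, and each fit with 1 library left out had 1 residual degree of freedom. The replicate block also had 1, and its calls rose. Why calls fell was not tested. Median ratio scaling gave 1793 and 1569. For the pump partners, 2 to 3 were called higher in excitatory nuclei under all 13 alternatives, against 3. Higher in inhibitory nuclei was 1, which became 0 without the filter and 0 to 1 with 1 library left out. That call, Nkain3, was lost with any library left out, and the 1 called without inhibitory replicate 2 was Fxyd4. Uncalled genes that crossed 0 were Fxyd2 (-1.12 to 0.17), Fxyd6 (-0.27 to 0.12), Nkain1 (-0.16 to 0.058) and Trp53 (-0.41 to 0.13) with 1 library left out, and Nkain1 under median ratio scaling (0.018) and quantile normalization (0.0079). Group differences in the share of Atp1b1 (-1.30 to 3.54 percentage points) and Atp1b3 (-3.34 to 1.89), and in the log2 ratios of Atp1b1 over Atp1b3 (-0.22 to 0.36) and Atp1b2 over Atp1b3 (-0.30 to 0.25), changed sign with the library left out. Under quantile normalization, added after the data were seen, the 3 log2 ratio differences were -0.14 (Atp1b1 over Atp1b2), -0.14 (Atp1b1 over Atp1b3) and 0.0016 (Atp1b2 over Atp1b3), all of opposite sign to the values without it. Those of the Atp1b2 share (-0.59 to -0.20) and of Atp1b1 over Atp1b2 (0.08 to 0.11) did not change sign with a library left out. The cause was not tested. TPM keep no depth, so what depth limits could not be computed.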
